A study of Mus musculus with 6 samples.

Results

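The 10 genes described here encode GLUT1, a glucose carrier of the cell membrane, and 9 enzymes that turn glucose into lactate: Slc2a1 (GLUT1), Hk2 (hexokinase 2), Pfkl and Pfkp (liver-type and platelet-type phosphofructokinase), Aldoa (aldolase A), Gapdh (glyceraldehyde-3-phosphate dehydrogenase), Pgk1 (phosphoglycerate kinase 1), Eno1 (alpha-enolase), Pkm (pyruvate kinase M) and Ldha (lactate dehydrogenase A). They were chosen by gene symbol, as a list of carriers and enzymes of this pathway, from the 55011 gene symbols of the table, and all 10 were found and passed the filter on low counts, as did 13859 genes in all. Glycolysis splits glucose into pyruvate in the cytosol, and lactate dehydrogenase converts pyruvate to lactate. Hexokinase, phosphofructokinase and pyruvate kinase catalyse its largely irreversible steps. Fat cells use the pathway to make glycerol 3-phosphate for triglyceride storage and release lactate, and activated macrophages and lymphocytes also depend on it.

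RNA was measured by sequencing of whole visceral adipose tissue, fat that lines the organs of the abdomen, from male mice of the strain C57BL/6 Foxp3.Cre-YFP. The Foxp3 gene, which defines regulatory T cells, drives a Cre recombinase fused to YFP in this strain. The control group is labelled bmal1WT with genotype WT and the other bmal1KO with genotype KO, written Bmal1WT and Bmal1KO here, with 3 libraries each. Both groups carried the Cre, were 30 weeks old, were fed a low-fat diet (LFD) over 14 weeks followed by 16 weeks on a high-fat diet (HFD), and were sampled at zeitgeber time 0 h (ZT0), when the lights go on. The deletion is thus aimed at a cell type that makes up a small part of the tissue, while the RNA came from all of its cells. The labels do not say that each library came from a separate mouse, so that p-values reflect how these libraries scatter, which may be technical. The comparison asks what loss of the clock transcription factor Bmal1 (Arntl) from Foxp3-expressing cells does to RNA levels in the visceral fat of these mice.

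Total counts ran from 6514620 to 9529198 per library. Bmal1KO replicate 1 was the shallowest and had counts on the most genes, 30019 against 19009 to 20145 in the other 5 libraries. The summed level of 14 epididymis and testis markers was 309 CPM (read counts scaled to a common library size by TMM) in Bmal1WT replicate 1 and 0 to 2.41 CPM in the others. Arntl was at 28.4 to 40.1 CPM in Bmal1WT and 32.7 to 48.7 CPM in Bmal1KO, overlapping (log2 fold change 0.27, SE 0.22). Foxp3 had 0 to 3 counts in any library. In whole-tissue RNA neither gene checks the genotype labels. The fat cell label held: Adipoq, the fat cell hormone adiponectin, was at 1953 CPM or more in every library.

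No difference in these 10 genes passed the adjusted test. Hk2, Pfkp, Aldoa, Eno1 and Ldha were lower in all 3 Bmal1KO libraries than in any Bmal1WT library, with log2 fold changes of -0.45 to -0.31, although Hk2 overlapped when library size alone set the scale. Slc2a1, Pfkl, Gapdh, Pgk1 and Pkm overlapped between the groups, and 4 of these were higher on average, Pkm by 0.01. The adjusted p ran from 0.434 to 0.994 over the 10 genes ( quasi-likelihood test of edgeR, Benjamini-Hochberg over all 13859 genes, threshold 0.05), and 0% of all genes passed. Over all genes limma voom also called 0. DESeq2, which keeps low genes, called 60 of 34476, none of them a member. At an unadjusted p under 0.05 there were 2 members, Pfkp and Ldha, both lower, against 9.31% of all genes in either direction, 4.26% lower and 5.05% higher. Lower levels without overlap were found for 5 of 10 members and for 7.85% of all genes, and higher ones for 0 of 10 and 7.83%. The members were chosen with earlier results of these data known, so these comparisons are not independent of the data. The median log2 fold change was -0.23 over the members and 0.02 over all genes tested, and 6 of 10 members lay below 0 against 48% of all genes, and 4 above it against 52%. In whole tissue, fewer cells of a type and less RNA per cell cannot be told apart.

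**Figure D1:**
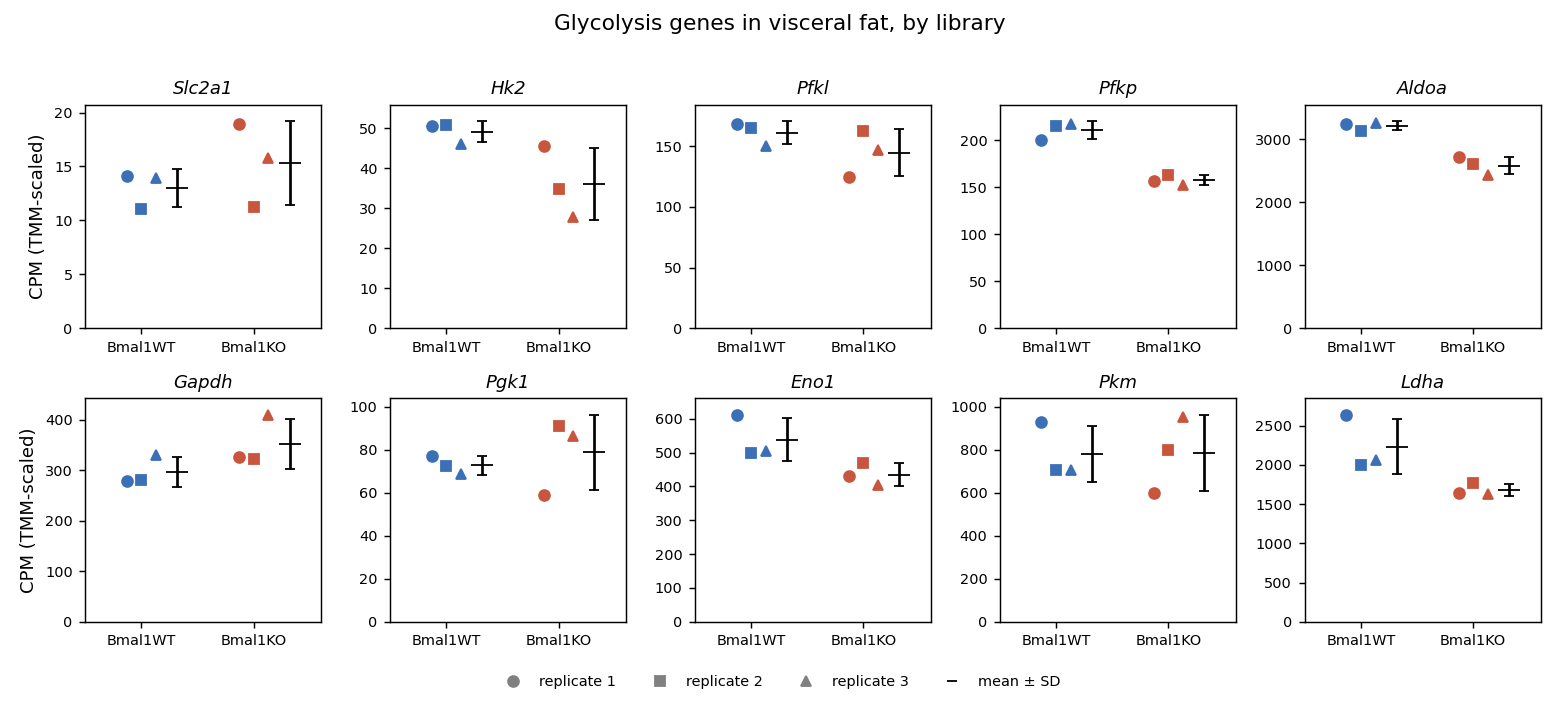
Level of each of the 10 genes in CPM (scaled by TMM, y axis from 0) in the 3 Bmal1WT (blue) and 3 Bmal1KO (red) libraries, with the marker shape giving the replicate number and the black bar the mean ± SD. In Hk2, Pfkp, Aldoa, Eno1 and Ldha every red point lies under every blue one, as for Pfkp at 152 to 163 CPM against 200 to 217 CPM; the other 5 overlap.

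Since the study concerns a clock factor, the sequence before the members' transcription starts is shown first. All 10 members matched RefSeq starts (build GRCm38.p6, the same assembly as mm10), 16 starts in all, and the 250 bases before each were searched on both strands. The letters CACGTG are the E-box that BMAL1 and its partner CLOCK bind, and ACGTG and GCGTG are the cores of the element bound by hypoxia-inducible factors, which regulate many glycolytic genes. Every CACGTG also contains ACGTG. The windows of Ldha, Hk2 and Pfkp, the 3 members of smallest p, follow with that of Pgk1, which overlapped between groups, each 5′ to 3′ along the gene with matches in capitals.
Ldha chr7:46845554-46845803 (+ strand): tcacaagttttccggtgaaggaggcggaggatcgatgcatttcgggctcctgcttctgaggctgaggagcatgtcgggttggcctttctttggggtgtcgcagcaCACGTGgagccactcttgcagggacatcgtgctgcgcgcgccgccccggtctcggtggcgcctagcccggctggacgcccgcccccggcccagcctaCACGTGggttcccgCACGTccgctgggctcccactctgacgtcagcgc
Hk2 chr6:82774455-82774704 (- strand): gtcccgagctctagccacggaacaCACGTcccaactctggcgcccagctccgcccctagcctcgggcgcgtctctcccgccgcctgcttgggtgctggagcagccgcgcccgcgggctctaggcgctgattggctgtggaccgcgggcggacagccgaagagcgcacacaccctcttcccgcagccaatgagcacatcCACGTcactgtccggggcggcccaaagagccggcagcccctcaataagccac
Pfkp chr13:6648772-6649021 (- strand): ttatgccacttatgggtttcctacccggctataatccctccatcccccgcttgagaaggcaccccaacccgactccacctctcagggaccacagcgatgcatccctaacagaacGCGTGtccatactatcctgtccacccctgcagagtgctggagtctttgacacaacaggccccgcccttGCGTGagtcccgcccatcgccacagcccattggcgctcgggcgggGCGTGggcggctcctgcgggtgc
Pgk1 chrX:106186850-106187099 (+ strand): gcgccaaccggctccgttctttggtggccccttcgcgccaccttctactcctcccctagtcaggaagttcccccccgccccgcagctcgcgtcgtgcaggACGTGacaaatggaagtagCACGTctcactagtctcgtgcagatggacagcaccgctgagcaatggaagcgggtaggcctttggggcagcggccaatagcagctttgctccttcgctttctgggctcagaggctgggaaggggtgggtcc
CACGTG was found in 1 of the 16 windows, the upstream of the 2 Ldha starts, where it began 145 and 48 bases before the start. The bases after this start were not found unbroken in any Ldha transcript of the GENCODE M21 annotation, while those after the other Ldha start were. The window of that other start held no CACGTG, only GCGTG 59 bases before it. Of all 32851 RefSeq windows of this length, 6.02% held CACGTG. Hk2 held ACGTG 226 and 52 bases before its start on the reverse strand, written as CACGT, and Pgk1 held it 150 bases before on the forward and 131 bases before on the reverse strand. Pfkp held GCGTG 136, 68 and 23 bases before its start. All 10 members had ACGTG or GCGTG in at least 1 window. For Pkm the only window with a match belonged to a start whose following bases were likewise not found in its annotated transcripts. Counted by window, 14 of 16 held a match, against 38.6% of all windows, and no such share was computed by gene. The 16 windows form 14 separate stretches, since 2 windows of Aldoa and 2 of Eno1 overlap and hold the same matches. Members that were lower without overlap and members that overlapped thus both held these letters. A match describes the sequence and is not a measured binding site.

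Reads of these genes can be hard to place, because several have processed pseudogenes, copies of the mRNA elsewhere in the genome. Each member's longest coding transcript in GENCODE M21 was cut into all words of 38 bases, the read length, and words also found in transcripts of other genes were counted. The share was 83.5% for Gapdh, which had 279 such pseudogenes, 75.4% for Eno1 and 68.2% for Pgk1. It was 43.9% for Pkm, 27.3% for Ldha and 24.7% for Aldoa. For Pfkp 17.3% of words were shared with its overlapping neighbour Pitrm1, and without strand information reads there cannot be told apart. Slc2a1 (2.11%), Pfkl (0.379%) and Hk2 (0%) were nearly free of shared words. The treatment of reads with several hits is not given in the sources used here, so the levels of Gapdh, Eno1 and Pgk1 are uncertain, and those of Pkm, Ldha and Aldoa in part.

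**Figure D2:**
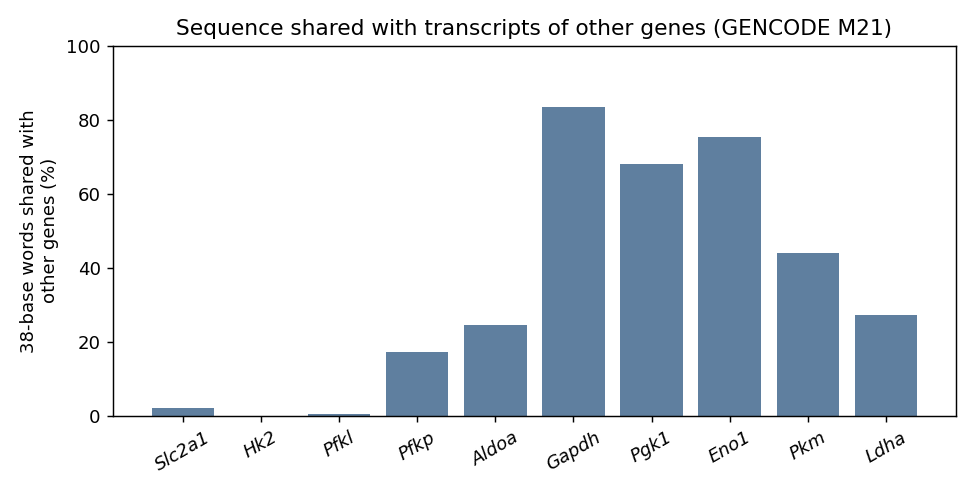
Share of the 38-base words of each member's longest coding transcript that also occur in annotated transcripts of other genes (y axis, percent). Gapdh (83.5%), Eno1 (75.4%) and Pgk1 (68.2%) share most of their words, Hk2 shares 0%.

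Levels between genes were compared in CPM per kb of annotated exon. In Bmal1WT the order was Aldoa (1103 ± 25.0, SD, n = 3), Ldha (674 ± 107), Pkm (156 ± 26.0), Eno1 (100.1 ± 11.7), Gapdh (71.6 ± 7.16), Pgk1 (32.4 ± 1.94), Pfkl (24.2 ± 1.41), Pfkp (15.7 ± 0.709), Hk2 (8.24 ± 0.438) and Slc2a1 (3.71 ± 0.495). Over all 6 libraries the values of Eno1 and Gapdh overlapped, as did those of Hk2 and Slc2a1, and the other neighbours in this order did not. Among members, the enzymes of the lower pathway, from aldolase to lactate dehydrogenase, thus stood above the carrier and the kinases of the upper pathway. Genes outside the members did not keep to this division. Hk3, another hexokinase, ran from 19.2 to 47.5 over all libraries, against 26.3 to 40.6 for Pgk1. Pgam1, an enzyme of the lower pathway, ran from 21.2 to 33.9, against 18.7 to 25.2 for Pfkl. The places of Gapdh, Eno1 and Pgk1 also rest on levels that shared sequence makes uncertain. With the longest coding transcript as length, Pfkp (50.8 ± 2.29), Pfkl (43.3 ± 2.53) and Pgk1 (39.9 ± 2.38) stood in the opposite order and overlapped, and the values of Pkm also reached those of Eno1. The symbol Aldoa covers 2 gene models in GENCODE M21, of which the longer gave the length.

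Slc2a1 (mm10 chromosome 4, 119108711 to 119137983, + strand) encodes GLUT1, the carrier that lets glucose into many cells without insulin. It was at 14.1, 11.0 and 13.9 CPM in Bmal1WT replicates 1 to 3, against 18.9, 11.2 and 15.8 CPM in Bmal1KO. The highest library was a Bmal1KO library, but the groups overlapped, and the log2 fold change of 0.23 (SE 0.29, 95% interval -0.40 to 0.87) did not pass edgeR's test (adjusted p = 0.822). Slc2a1 was the member with the fewest counts, 94 to 129 per library. Its insulin-responsive relative Slc2a4 (GLUT4) of fat and muscle was at 53.2, 67.6 and 108 CPM in Bmal1WT, against 85.3, 31.0 and 34.7 CPM in Bmal1KO (-0.61, SE 0.40, adjusted p = 0.656). Bmal1KO replicate 1 stood inside the Bmal1WT range and the other 2 Bmal1KO libraries under it. Among Slc2a1, Slc2a3 and Slc2a4, Slc2a1 took 20.5%, 13.6% and 11.2% of counts per kb in Bmal1WT and 17.7%, 25.5% and 29.9% in Bmal1KO. This difference of 9.23 percentage points did not pass the 2-sided exact permutation test (p = 0.2, adjusted p = 0.467 over 7 isoform shares), for which 3 libraries against 3 allow no p under 0.1.

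Hk2 (chromosome 6, 82725025 to 82774454, - strand) phosphorylates glucose and is the insulin-regulated hexokinase of fat and muscle. It was at 50.6, 50.7 and 46.2 CPM in Bmal1WT, against 45.6, 34.8 and 27.9 CPM in Bmal1KO. All Bmal1KO libraries lay lower, Bmal1KO replicate 1 only just, and the log2 fold change was -0.45 (SE 0.21, 95% interval -0.91 to 0.01, adjusted p = 0.539 by edgeR's test). Hk3, the hexokinase of myeloid cells, was the most abundant of the 3 hexokinases per kb, with 67.3% to 85.9% of the family's counts per kb. It was at 112, 96.3 and 106 CPM in Bmal1WT, against 70.5, 175 and 169 CPM in Bmal1KO (0.40, SE 0.29, adjusted p = 0.679). Without Bmal1KO replicate 1, Hk3 was higher by 0.71 and passed edgeR's test (adjusted p = 0.0483), while the member Hk2 stood at -0.65 (adjusted p = 0.131). Hk1, the widely expressed form, differed by -0.08 (SE 0.26, 95% interval -0.66 to 0.50). The share of Hk2 was 20.6%, 22.8% and 19.6% in Bmal1WT and 26.8%, 10.4% and 8.76% in Bmal1KO, overlapping (exact permutation p = 0.4, adjusted p = 0.56). Bmal1KO replicate 1 thus had the highest share of Hk2 and the lowest of Hk3, and Bmal1KO replicates 2 and 3 the reverse.

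Phosphofructokinase commits sugar to glycolysis, and its 3 subunits form mixed tetramers. Pfkp (chromosome 13, 6579768 to 6648777, - strand) had the smallest p of the members. It was at 200, 215 and 217 CPM in Bmal1WT, against 157, 163 and 152 CPM in Bmal1KO. The groups stood apart with little spread within either, and the log2 fold change was -0.42 (SE 0.14, 95% interval -0.74 to -0.11, unadjusted p = 0.0134, adjusted p = 0.434 by edgeR's test), which ranked 424 of 13859 genes. Pfkl (chromosome 10, 77986947 to 78010083, - strand) was at 168, 165 and 151 CPM in Bmal1WT, against 125, 163 and 147 CPM in Bmal1KO. Its groups overlapped, with Bmal1KO replicate 1 lowest (-0.16, SE 0.16, 95% interval -0.50 to 0.19, adjusted p = 0.785). Pfkm, the muscle-type subunit, was at 11.3 to 17.2 CPM in all libraries (0.01, SE 0.27). The share of Pfkp among the 3 was 34.3%, 35.1% and 36.9% in Bmal1WT and 33.8%, 29.5% and 29.9% in Bmal1KO. These did not overlap, a difference of -4.37 percentage points at the smallest p this design allows (exact permutation p = 0.1, adjusted p = 0.467). On raw counts (-4.71 points) or with the longest coding transcript as length (-4.79 points) the groups overlapped (exact permutation p = 0.2 for each). The share of Pfkl was higher by 2.53 points and overlapped (exact permutation p = 0.4, adjusted p = 0.56). With 1 library left out that difference ran from 0.964 points (without Bmal1WT replicate 3) to 4.27 points (without Bmal1WT replicate 1).

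**Figure D3:**
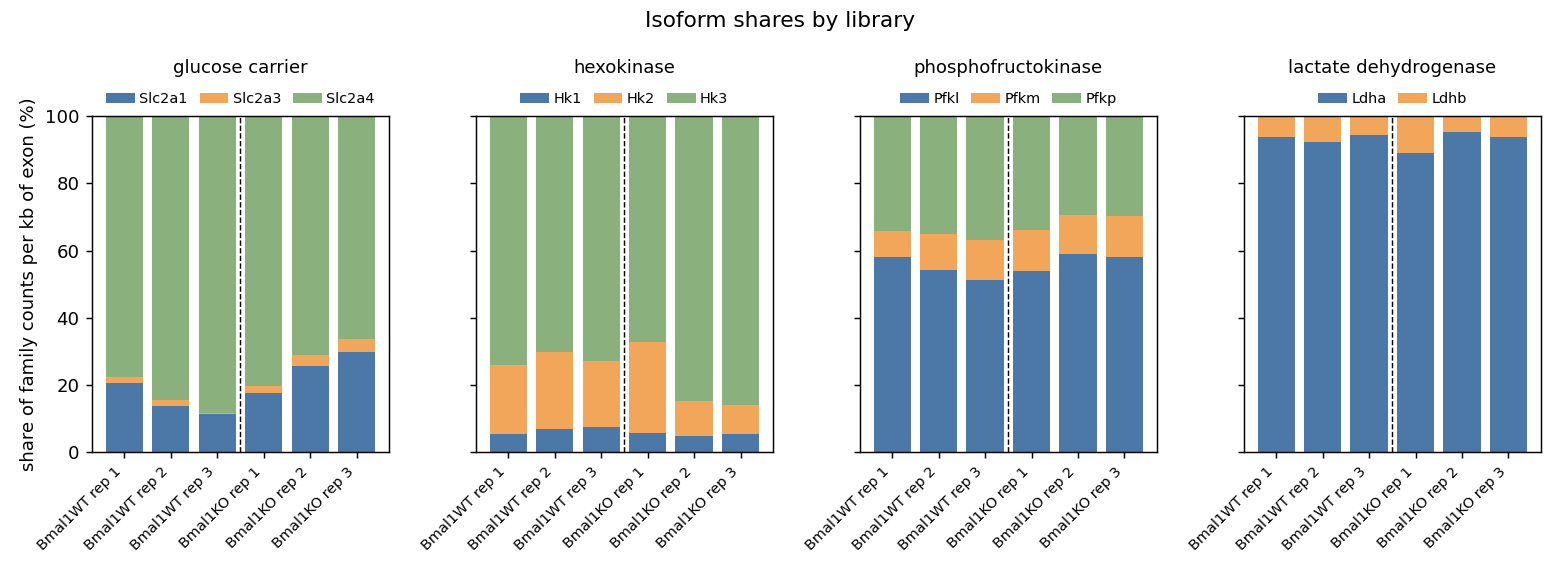
Share of each isoform in its family's counts per kb of exon (y axis, percent), 1 bar per library, with the dashed line between Bmal1WT and Bmal1KO. Ldha holds 89.1% to 95.4% of lactate dehydrogenase in every library, and Hk3 holds most hexokinase, with its largest shares in Bmal1KO replicates 2 and 3.

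Aldoa (chromosome 7, 126795234 to 126800751, - strand) splits fructose 1,6-bisphosphate into triose phosphates and was the most abundant member per kb. It was at 3245, 3126 and 3258 CPM in Bmal1WT, against 2707, 2599.8 and 2429 CPM in Bmal1KO. The groups did not overlap (log2 fold change -0.32, SE 0.17, 95% interval -0.69 to 0.06, adjusted p = 0.592 by edgeR's test). Tpi1, triose phosphate isomerase of the next step, was chosen after its values were seen. It stood at 1555, 1328 and 1386 CPM in Bmal1WT, against 1142, 1229.8 and 1042.5 CPM in Bmal1KO, again without overlap (-0.32, SE 0.17, adjusted p = 0.579). Aldoc, the brain-type aldolase, took at most 0.476% of aldolase counts per kb in any library.

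Gapdh (chromosome 6, 125161715 to 125166467, - strand), which makes NADH and is widely used as a reference gene, stood the other way. It was at 278, 280.3 and 330.2 CPM in Bmal1WT, against 325, 321 and 409 CPM in Bmal1KO. The groups overlapped through Bmal1WT replicate 3 (log2 fold change 0.25, SE 0.17, 95% interval -0.12 to 0.62, adjusted p = 0.659 by edgeR's test). Pgk1 (chromosome X, 106187100 to 106203699, + strand) makes the first ATP of the pathway. It was at 77.2, 72.5 and 68.5 CPM in Bmal1WT, against 58.9, 91.0 and 86.4 CPM in Bmal1KO. Bmal1KO replicate 1 was the lowest library and the other 2 Bmal1KO libraries the highest (0.12, SE 0.19, adjusted p = 0.871).

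Eno1 (chromosome 4, 150236721 to 150248879, + strand) forms phosphoenolpyruvate. It was at 611, 498 and 506 CPM in Bmal1WT, against 432, 469.8 and 403 CPM in Bmal1KO. All Bmal1KO libraries lay lower (log2 fold change -0.31, SE 0.16, 95% interval -0.67 to 0.05, adjusted p = 0.581 by edgeR's test). Without Bmal1WT replicate 1, the highest library, the log2 fold change was -0.20. Eno1 held 92.6% to 96.0% of enolase counts per kb in every library, and its share differed by 0.31 percentage points (exact permutation p = 0.7, adjusted p = 0.817). The neuronal form Eno2 was at 1.03 to 9.06 CPM and the muscle form Eno3 at 4.30 to 12.3 CPM. Pkm (chromosome 9, 59656368 to 59679375, + strand) makes pyruvate. It was at 932, 705 and 709 CPM in Bmal1WT, against 599.5, 799.9 and 955 CPM in Bmal1KO. The Bmal1KO libraries spanned the whole Bmal1WT range, and the mean did not differ beyond this spread (0.01, SE 0.21, 95% interval -0.46 to 0.47, adjusted p = 0.994).

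Ldha (chromosome 7, 46841475 to 46855627, + strand) turns pyruvate into lactate. It was at 2637, 1994 and 2061 CPM in Bmal1WT, against 1645, 1765 and 1624 CPM in Bmal1KO. The Bmal1KO libraries were alike and all lower, and Bmal1WT replicate 1 stood highest (log2 fold change -0.41, SE 0.18, 95% interval -0.81 to -0.01, unadjusted p = 0.0469, adjusted p = 0.527 by edgeR's test). That was the library with epididymal markers. Without it the log2 fold change of Ldha was -0.27 (unadjusted p = 0.224 by edgeR's test), and the groups still did not overlap. Ldhb, the form of oxidative tissues, was at 56.7 to 83.2 CPM in Bmal1WT and 40.8 to 95.6 CPM in Bmal1KO (-0.24, SE 0.29). Ldha therefore held 89.1% to 95.4% of lactate dehydrogenase counts per kb, with overlapping groups (exact permutation p = 0.9, adjusted p = 0.9).

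**Figure D4:**
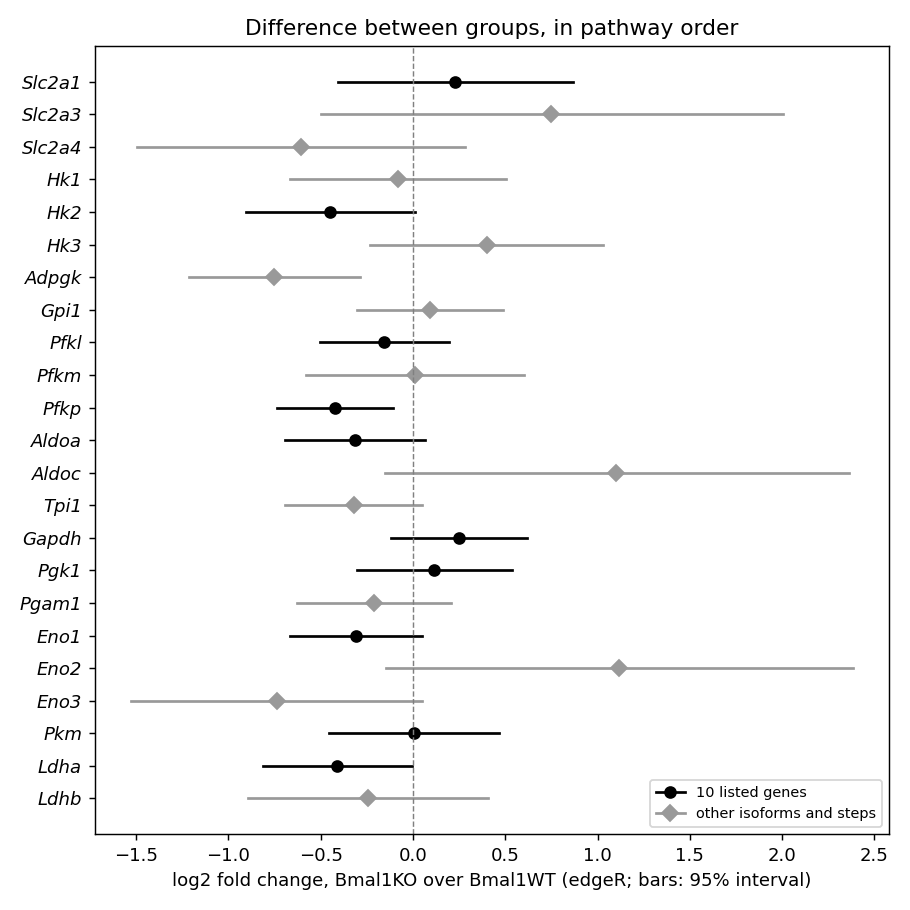
Log2 fold change of Bmal1KO over Bmal1WT (x axis) with its 95% interval for the 10 members (black circles) and for other isoforms and steps of the pathway (grey diamonds), from glucose carriers at the top to lactate dehydrogenases at the bottom. Among members the intervals of Pfkp and Ldha lie below 0, and none of the genes passed the adjusted threshold.

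The members also differed in which Bmal1KO libraries were low. Against the Bmal1WT mean, Hk2, Pfkp, Aldoa, Eno1 and Ldha lay between -0.43 and -0.11 on the log2 scale in Bmal1KO replicate 1 and between -0.82 and -0.19 in replicates 2 and 3. Pfkl, Pgk1 and Pkm lay at -0.37, -0.30 and -0.37 in Bmal1KO replicate 1, and Pgk1 and Pkm at 0.33 and 0.05 in replicate 2 and at 0.25 and 0.30 in replicate 3. Bmal1KO replicate 1 thus had 8 of 10 members under every Bmal1WT library, replicate 2 had 5 and replicate 3 had 6. Of all genes tested, 27.8%, 29.8% and 30.5% lay under every Bmal1WT library in these 3 libraries. Together the members took 0.779%, 0.692% and 0.718% of all counts in Bmal1WT and 0.624%, 0.653% and 0.651% in Bmal1KO, most of it from Aldoa and Ldha.

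Markers of cell types moved between libraries beside these values. The summed level of 12 adipocyte markers was 38991 to 49578 CPM in Bmal1WT, 55353 CPM in Bmal1KO replicate 1 and 24201 and 19078 CPM in replicates 2 and 3. Bmal1KO replicate 1 held the highest sum of all libraries, of which Car3 alone made 23840 CPM. Its markers did not move together. Adipoq lay above every Bmal1WT library (5498 against 4269 to 4830 CPM) and Pparg below (180 against 216 to 247 CPM). The sum of 12 macrophage markers was 8724 to 13078 CPM in Bmal1WT, against 8673, 15562 and 18429 CPM in Bmal1KO replicates 1 to 3. In Bmal1KO replicate 1 Lyz2 alone made 4702 CPM of this sum, and the macrophage markers did not move together either. C1qc (129 against 83.7 to 128 CPM in Bmal1WT) and Cx3cr1 (14.7 against 8.39 to 9.92 CPM) lay above every Bmal1WT library there. Adgre1 (369 against 466 to 602 CPM) and Cd68 (667 against 1030 to 1374 CPM) lay below. Hk3, Pfkl, Pgk1 and Pkm had their lowest library in Bmal1KO replicate 1, where the macrophage sum lay just under that of Bmal1WT replicate 3 (8724 CPM). In Bmal1KO replicates 2 and 3, Hk3 and Pgk1 lay above every Bmal1WT library. Pkm did so in replicate 3 alone, and Pfkl in neither. In the other sums, 10 endothelial markers were at 465 to 974 CPM in Bmal1WT and 318 to 530.5 CPM in Bmal1KO, and 10 T cell markers at 29.9 to 76.9 and 104 to 219 CPM. The 7 mesothelial markers were at 213 to 400.04 and 462 to 509 CPM, 7 B cell markers at 13.6 to 50.6 and 30.1 to 301 CPM, and 6 red blood cell markers at 670.2 to 733 and 451 to 914 CPM. T cell and mesothelial sums stood apart between the groups and the others overlapped. Of 8 skeletal muscle markers, at 19.9 to 44.3 and 34.3 to 72.8 CPM in sum, most of the level was Acta1, and Ckm, the muscle creatine kinase, was at 0 to 0.752 CPM. By direction, the markers were 11 of 12 lower for adipocytes, 10 of 10 lower for endothelium, 10 of 12 higher for macrophages, 10 of 10 higher for T cells and 7 of 7 higher for mesothelium, and 0 passed edgeR's adjusted threshold. Of all genes tested, 48% were lower and 52% higher. DESeq2 called 4 T cell markers (Cd3e, Cd3g, Lat and Trbc2) and the macrophage marker C1qc as higher and the endothelial marker Cldn5 as lower. Of all 34476 genes that DESeq2 tested, 36 were called as higher and 24 as lower. Without Bmal1KO replicate 1, 6 of the 12 adipocyte markers passed edgeR's test, all lower, among them Adipoq (-1.19, adjusted p = 0.0113). Of all 14247 genes tested in that setting, 110 passed as lower and 46 as higher. Robo4 of endothelium was also lower there, and C1qc, Trbc2 and the B cell marker Bank1 were higher. The part of these cell types in the members' values was not tested.

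**Figure D5:**
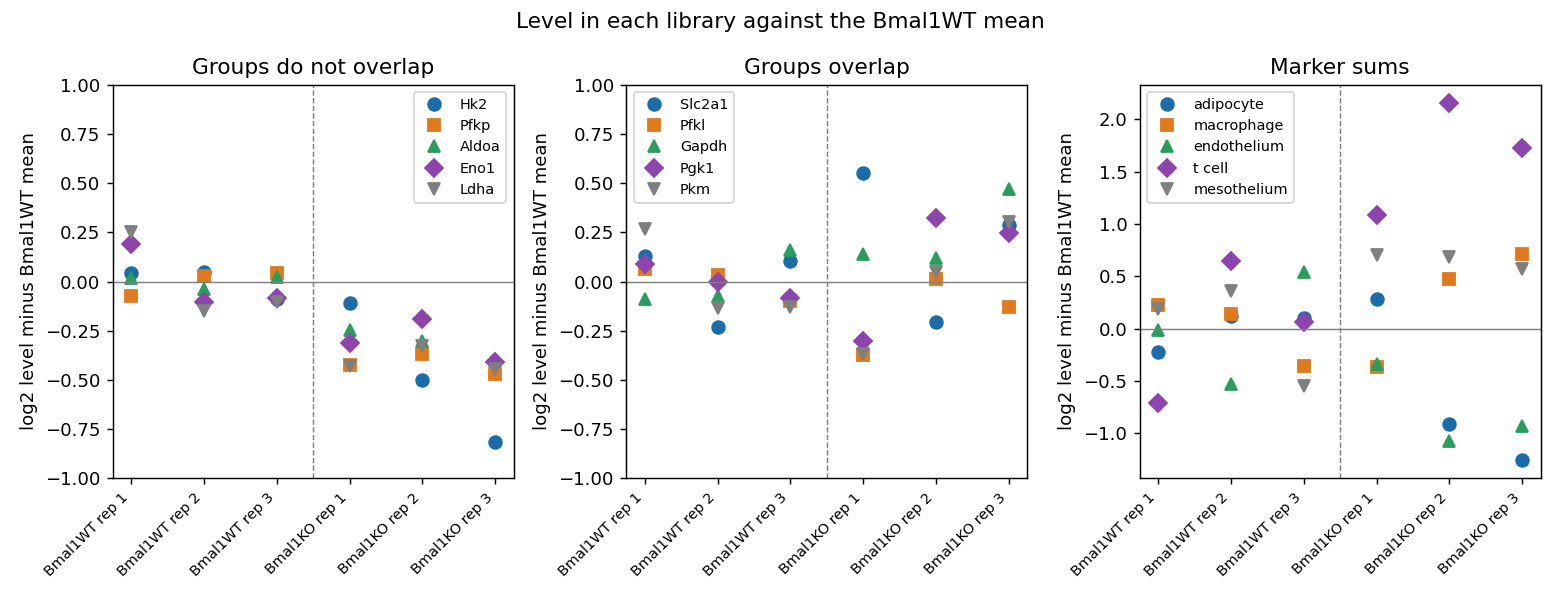
Log2 level in each library (x axis) minus the Bmal1WT mean (y axis) for the 5 members whose groups do not overlap (left), the 5 that overlap (middle) and the summed markers of 5 cell types (right, with its own scale), with the dashed line between the groups. The left panel lies below 0 in all Bmal1KO libraries, while Pkm and Pgk1 lie below 0 in Bmal1KO replicate 1 and above it in replicates 2 and 3.

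Among the other genes of the pathway, 0 passed edgeR's adjusted test in any list. At an unadjusted p under 0.05 there were 7 of 74 tested genes (9.46%), against 9.31% of all genes: Adpgk, Pfkfb1, Slc2a12, Pdhx, Gpd1, Adm and Epas1. All 7 were lower, against 4.26% of all genes that were lower at that level. These lists, too, were chosen with earlier results of these data known. Of 21 further glycolytic enzymes and isoforms 13 were tested, 5 higher and 8 lower (median log2 fold change -0.21, against 0.02 over all genes). Adpgk, an ADP-dependent glucokinase of the endoplasmic reticulum, had the smallest p: 58.4, 59.2 and 60.4 CPM in Bmal1WT, against 39.5, 25.1 and 41.2 CPM in Bmal1KO (-0.75, SE 0.21, adjusted p = 0.414). Its groups lay well apart, as did those of Eno3 (-0.74, SE 0.36) more narrowly, whereas Eno2 (1.12, SE 0.57) and Aldoc (1.10, SE 0.57) overlapped at low counts. Pgk2, Ldhc and Gapdhs, forms of sperm, and Pklr, the pyruvate kinase of liver and red cells, had at most 0.752 CPM in any library. In Bmal1WT replicate 1, the library with epididymal markers, Pgk2 and Ldhc were at 0 CPM and Gapdhs at 0.228 CPM. Of 6 tested enzymes that set fructose 2,6-bisphosphate or reverse the phosphofructokinase step, 1 was higher and 5 lower (median -0.23). With 1 library left out this median ran from -0.59 (without Bmal1KO replicate 1) to -0.09 (without Bmal1WT replicate 3). Without both replicate 1 libraries it was -0.69. Pfkfb1, which makes and breaks fructose 2,6-bisphosphate, was at 24.5, 34.6 and 38.7 CPM in Bmal1WT, against 22.4, 19.9 and 20.0 CPM in Bmal1KO (-0.65, SE 0.23, adjusted p = 0.453), and all Bmal1KO libraries were lower. Pfkfb3, at 122 to 335 CPM over all libraries, overlapped (-0.36, SE 0.29).

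Of 10 other carriers of sugar and lactate, 3 were higher and 7 lower (median -0.12). Slc2a12, a further glucose carrier, was at 7.19, 3.52 and 7.42 CPM in Bmal1WT, against 1.65, 2.26 and 0 CPM in Bmal1KO (adjusted p = 0.477). All Bmal1KO libraries were lower, but with 0 counts in Bmal1KO replicate 3 its fold is uncertain. Slc16a3, the lactate exporter MCT4, was at 2.91 to 9.37 and 7.94 to 11.3 CPM (0.60, SE 0.44). In the step from pyruvate into the mitochondrion, 4 of 14 genes were higher and 10 lower (median -0.11). Pdhx, a subunit of the pyruvate dehydrogenase complex, was at 58.2, 73.7 and 65.3 CPM in Bmal1WT, against 54.1, 37.0 and 48.1 CPM in Bmal1KO, lower without overlap (-0.50, SE 0.19, adjusted p = 0.477).

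Of 10 genes of the branches to pentose phosphates and glycerol 3-phosphate, 4 were higher and 6 lower (median -0.17). Gpd1, which makes glycerol 3-phosphate for triglycerides from a product of aldolase, was at 1519, 1240.3 and 1501 CPM in Bmal1WT, against 1113, 1142 and 979.7 CPM in Bmal1KO (-0.40, SE 0.17, adjusted p = 0.517). Its Bmal1KO libraries were all lower, while those of Pgls, a pentose phosphate enzyme, were all higher at 172 to 177 against 142 to 148 CPM (0.27, SE 0.14, adjusted p = 0.565). Among 15 hypoxia-inducible factors, their regulators and targets outside glycolysis, 6 were higher and 9 lower (median -0.14). Hif1a, named after its values were seen, was at 53.5 to 75.4 CPM in Bmal1WT and 56.8 to 79.8 CPM in Bmal1KO (0.04, SE 0.20, 95% interval -0.40 to 0.48). Epas1, the factor HIF-2alpha of endothelium and fat, overlapped as well (-0.40, SE 0.18, adjusted p = 0.523), as did the target Adm, the vessel peptide adrenomedullin (-0.66, SE 0.29). Of 6 other factors tied to glycolytic genes, Myc and Mlxipl among them, 1 was higher and 5 lower, with log2 fold changes between -0.23 and 0.18, and their median of -0.08 lay above 0 with library size alone as scaling and without Bmal1WT replicate 3 (0.04).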

How the data were processed

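Per the labels' protocols, RNA was extracted from snap-frozen tissue with a lipid tissue kit, primed with oligo(dT), amplified, fragmented with Nextera XT and sequenced as paired reads of 38 bases, a library that does not mark strand and carries no molecular identifiers. The deposited values are raw read counts for each gene symbol, which the authors made with STAR 2.7.3a on mm10 and featureCounts, per the notes of the submitters on processing. How strand and multi-mapped reads were handled, and which annotation was used, is not given in the sources used here. Genes were filtered by filterByExpr, scaled by TMM and tested with edgeR 4.0.16 in R 4.3.3 (quasi-likelihood F-test, robust, Bmal1KO against Bmal1WT, no covariates), adjusted by Benjamini-Hochberg at 0.05. The SE is the absolute coefficient over the square root of F. CPM are given as mean ± SD or per library. The floor of 3 counts, 0.323 to 0.451 CPM, covers counting error only. Isoform shares were tested by exact permutation. Coordinates and lengths come from GENCODE M21 (mm10), promoters from RefSeq. The test was tried on simulated data. Alternatives were other scaling, filters, DESeq2 1.42.0, limma 3.58.1 voom, a replicate block, left-out libraries and added pseudogene rows. The text names all members, their isoforms, and at most 4 genes of smallest p per list, with exceptions stated. Members and lists were chosen with earlier results of these data known. Of the list entries, 1 (Mondoa) matched no symbol.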

Additional observations from a re-analysis of the deposited data

How the results depend on the processing

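No member passed the adjusted threshold under any of the 16 alternatives run (DESeq2 and limma voom included), and Hk2, Pfkl, Pfkp, Aldoa, Eno1 and Ldha kept a lower and Slc2a1 and Gapdh a higher mean in Bmal1KO under each. The log2 fold changes with 1 library left out ran from -0.46 to -0.39 for Pfkp, -0.48 to -0.27 for Ldha, -0.65 to -0.30 for Hk2, -0.35 to -0.28 for Aldoa, -0.37 to -0.20 for Eno1, -0.25 to -0.06 for Pfkl, 0.05 to 0.41 for Slc2a1 and 0.12 to 0.34 for Gapdh. Pgk1 ran from -0.0077 to 0.28, below 0 without Bmal1KO replicate 2, and Pkm from -0.17 to 0.17, below 0 without any 1 of Bmal1WT replicates 2 and 3 and Bmal1KO replicates 2 and 3. Pkm was also at -0.0049 with DESeq2, at -0.0054 with the replicate block and at -0.0089 without a filter. Members higher numbered 2 to 4 with 1 library left out, and members lower without overlap 4 (library size alone, where Hk2 overlapped) to 6, the extra gene being Pfkl (without Bmal1WT replicate 3 or Bmal1KO replicate 2). The share of all genes lower without overlap was 4.86% with library size alone, 12.3% without Bmal1WT replicate 3 and 12.2% without Bmal1KO replicate 2. Library size alone moved the median of all genes from 0.02 to 0.11, and the median of the members to -0.14.

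Over all genes, 0 of 13859 passed in the main analysis, 60 of 34476 with DESeq2 and 186 of 34517 without a filter. With 1 library left out 0 to 156 passed (156 of 14247 without Bmal1KO replicate 1). Without Bmal1WT replicate 1 and Bmal1KO replicate 1, 61 of 13958 passed. At an unadjusted p under 0.05 there were 1290 in the main analysis. With the replicate block 0 genes and 0 members were called. Deviations of same-numbered libraries correlated at -0.07, 0.09 and -0.03, and 1 of 3 replicates matched its own number best, so the numbers were not taken as pairs. Adding named pseudogene and retrogene rows, or, chosen after seeing the data, pseudogenes sharing 38-base words, added at most 1922 counts to the 16190 of Gapdh and changed no direction. Of the pathway genes outside the members, Hk3 passed without Bmal1KO replicate 1. The median of the further glycolytic enzymes was 0.08 with DESeq2, which keeps low genes, against -0.21, and at its smallest -0.09 with 1 library left out (without Bmal1KO replicate 1). With 1 library left out, the carriers' median (-0.12) ran from -0.14 to -0.02 (without Bmal1WT replicate 1). That of pyruvate entry (-0.11) ran from -0.24 (without Bmal1KO replicate 1) to -0.04 (without Bmal1KO replicate 3). That of hypoxia-inducible factors (-0.14) ran from -0.26 (without Bmal1WT replicate 2) to -0.12. Library size alone as scaling gave -0.02 for the carriers, -0.02 for pyruvate entry and -0.05 for hypoxia-inducible factors.

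The isoform share of Eno1 differed by -0.426 percentage points on raw counts and by -0.071 with the longest coding transcript as length, against 0.31, and by -0.46 to 1.24 with 1 library left out. That of Hk2 ran from -11.5 (without Bmal1KO replicate 1) to -2.42 (without Bmal1KO replicate 3), against -5.70. That of Ldha ran from -1.99 to 1.14 with 1 library left out and was 1.28 without both replicate 1 libraries. The causes of these changes were not tested. The number of libraries, 3 per group, limits precision, and the members had 94 to 30276 counts per library.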

Other observations

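Gapdh is often the reference against which other transcripts are expressed, and here its mean lay on the other side of 0 from that of most members. Counts of Ldha per count of Gapdh were 9.49, 7.12 and 6.24 in the Bmal1WT libraries, against 5.06, 5.50 and 3.97 in Bmal1KO. Those of Aldoa were 11.7, 11.2 and 9.87 in Bmal1WT and 8.32, 8.10 and 5.94 in Bmal1KO. Pfkp stood at 0.719, 0.767 and 0.658 against 0.482, 0.508 and 0.372. None of these 3 ratios, which do not depend on library scaling, overlapped between the groups, nor did that of Eno1, while those of Slc2a1, Hk2, Pfkl, Pgk1 and Pkm overlapped. Of all other genes tested, 15.6% had a lower ratio to Gapdh without overlap and 3.07% a higher one, against 4 and 0 of the 9 members. They were chosen after the values were seen and were not tested, and they rest on Gapdh counts that 83.5% shared sequence makes uncertain.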
